A study of Mus musculus with 30 samples.

Results

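The genes described here mark 2 rare cell types of adipose tissue, eosinophils and mast cells. The list held 3 eosinophil genes (Prg2, Siglecf and Epx) and 7 mast cell genes (Cpa3, Mcpt4, Cma1, Tpsb2, Kit, Fcer1a and Ms4a2), 10 of the 22180 genes that had a probe set with exactly 1 gene symbol. Each of the 10 had 1 such probe set, so no choice between probe sets arose. The tissue was the gonadal fat depot (gonadal white adipose tissue), taken from male wild type C57BL6/J mice aged 35 weeks, with 1 single-colour array for each of 30 samples and 6 arrays in each of 5 groups. Formerly obese-HFD mice ate a high-fat diet (HFD, with 58% of its energy from fat) for 20 weeks, a control diet (10.5% from fat) for 7 weeks and HFD again for 48 h, and formerly obese mice were treated alike but for the last 48 h. Obese mice ate HFD for 27 weeks. Lean-HFD mice ate control diet for 27 weeks and then HFD for 48 h, and lean mice ate control diet for 27 weeks. All values are log2 expression, and a level of 4 (16 on the linear scale) was taken as the lower limit of expression.

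Eosinophils are granulocytes that store cationic proteins in their granules, depend on interleukin 5 and are drawn into tissue by eotaxins. Mast cells mature inside the tissue under stem cell factor, the ligand of Kit, and pack their granules with histamine, heparin and large amounts of neutral proteases, which they release when antigen crosslinks IgE on the high-affinity receptor. In adipose tissue of mice, eosinophils are known as residents of lean fat and a source of type 2 cytokines, and mast cells as part of the immune infiltrate of obese fat. In a bulk sample, fewer cells of a type and less RNA per cell cannot be told apart.

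The label adipose tissue was borne out by 10 adipocyte markers, whose mean level per array was 10.9 to 11.5. The mean of 8 hepatocyte markers varied between 4.83 and 10.98 over the arrays and was highest in lean-HFD mice, and that of 7 epididymis and sperm markers between 3.98 and 6.76. Over all probe sets, correlations between arrays were 0.953 to 0.984, array medians 4.85 to 4.97, and no 2 arrays were identical.

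The mast cell label was better covered than the eosinophil label. Cpa3, the mast cell carboxypeptidase, the chymase genes Mcpt4 and Cma1, the tryptase gene Tpsb2 and Kit were above the lower limit on all 30 arrays, whereas Fcer1a and Ms4a2, the IgE-binding alpha chain and the beta chain of the IgE receptor, passed it on 1 array each. Of the eosinophil genes, Prg2, which encodes major basic protein, passed it on 29 arrays, Siglecf, a sialic acid-binding lectin of the eosinophil surface, on 28 arrays, and Epx, the eosinophil peroxidase, on 0. Among other genes of the same cells, 15 of 20 further mast cell genes had a mean over the limit but 3 of 9 further eosinophil genes, namely Alox15, Cebpe and Csf2rb, which other myeloid cells also express. The 15 include genes that other cells express too, such as Fcer1g (10.07) and Srgn (7.66). Of the further mast cell proteases, Mcpt1, Mcpt2, Mcpt9 and Cma2 averaged 3.11 to 3.14 and Tpsab1 3.71, and Tpsg1 passed narrowly (4.11). These counts therefore do not compare the 2 labels. Ccr3, the eotaxin receptor, and Il5ra, the interleukin 5 receptor chain, averaged 3.25 and 3.36. The eosinophil side of the contrast therefore rests mainly on Prg2. Whether Prg2 values follow eosinophils in these samples was not tested.

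The regions upstream of the protease genes are shown because Cpa3, Mcpt4 and Cma1 varied together over the arrays, and that of Kit because it did not follow them. Each is the stretch of 250 bases that ends just before the start used in the promoter table, read 5′ to 3′ on the gene's strand, from RefSeq on build GRCm38.p6. Capitals mark GATAA or its reverse complement TTATC, letters that GATA factors bind. Cpa3 lies at chr3:20242182-20242431 (minus strand), Mcpt4 at chr14:56062311-56062560 (minus strand), Cma1 at chr14:55944676-55944925 (minus strand) and Kit at chr5:75574737-75574986 (plus strand). For Cpa3 the gene record reaches beyond the start used in that table, so that 28 bases of its window lie inside the record (chr3:20215616-20242209). The other 3 windows lie outside their records.
Cpa3: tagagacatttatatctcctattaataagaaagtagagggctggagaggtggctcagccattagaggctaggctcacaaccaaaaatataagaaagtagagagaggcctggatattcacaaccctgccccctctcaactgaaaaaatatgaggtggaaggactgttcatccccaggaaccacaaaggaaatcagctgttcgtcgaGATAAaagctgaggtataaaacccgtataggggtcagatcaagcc
Mcpt4: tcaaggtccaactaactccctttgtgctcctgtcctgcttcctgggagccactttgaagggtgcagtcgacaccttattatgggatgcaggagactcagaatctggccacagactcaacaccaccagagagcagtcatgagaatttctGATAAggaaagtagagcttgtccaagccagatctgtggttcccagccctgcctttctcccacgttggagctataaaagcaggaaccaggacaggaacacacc
Cma1: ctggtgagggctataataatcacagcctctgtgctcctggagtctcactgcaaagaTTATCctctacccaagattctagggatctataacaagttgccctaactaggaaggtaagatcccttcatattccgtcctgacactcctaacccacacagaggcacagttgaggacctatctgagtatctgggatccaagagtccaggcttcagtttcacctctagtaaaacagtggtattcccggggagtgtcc
Kit: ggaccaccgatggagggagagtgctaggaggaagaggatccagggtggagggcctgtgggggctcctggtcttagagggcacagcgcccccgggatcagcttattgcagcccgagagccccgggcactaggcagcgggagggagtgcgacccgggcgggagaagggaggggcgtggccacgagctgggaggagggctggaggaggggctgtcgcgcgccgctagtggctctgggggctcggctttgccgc
Of the 10 genes, 8 were in the promoter table. GATAA on either strand was present in 5 of these 8 (Cpa3, Mcpt4, Cma1, Fcer1a and Ms4a2, the last 2 with 3 and 71 bases of the window inside the gene record), beginning 45 bases before the start of Cpa3 in the promoter table, 102 before that of Mcpt4 and 194 before that of Cma1, and in 22.6% of 32851 promoter windows of the same length. The E-box CATGTG or CACATG was present in 2 of the 8 (Siglecf and Fcer1a) and in 12.3% of the windows. A match describes letters in a window and is neither a site nor a cause. Mcpt4 (chr14:56059744-56062310) and Cma1 (chr14:55941451-55944675) both lie in the chymase locus, Cpa3 lies on chromosome 3 and Tpsb2 on chromosome 17. Probe sets of related proteases can share signal, which was not tested here. Tpsab1, the paralogue of Tpsb2, averaged 3.71 and passed the lower limit on 3 arrays. Its correlation with Cpa3 over the arrays, 0.10, therefore cannot tell whether signal is shared.

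Of the 3 eosinophil genes, Prg2 had the widest range of group means, and all of its groups overlapped. Its lowest, median and highest values were 4.08, 4.84 and 6.01 in formerly obese-HFD mice, 4.59, 5.08 and 5.50 in formerly obese mice, 4.48, 4.73 and 5.11 in obese mice, 4.32, 4.80 and 5.14 in lean-HFD mice, and 3.39, 4.47 and 4.63 in lean mice. Lean replicate 4 was the lowest of all 30 arrays. The order of means was formerly obese (5.08 ± 0.37, SD, n = 6), formerly obese-HFD (4.99 ± 0.66), obese (4.77 ± 0.22), lean-HFD (4.76 ± 0.27) and lean (4.27 ± 0.46), and the step between lean-HFD and lean, 0.50, was the only one larger than the pooled SD of its neighbours. Siglecf averaged 4.31 ± 0.08 in formerly obese-HFD, 4.33 ± 0.09 in formerly obese, 4.29 ± 0.17 in obese, 4.19 ± 0.22 in lean-HFD and 4.25 ± 0.21 in lean mice. Epx stayed between 3.44 and 3.99 on every array. Neighbouring groups in the order of these 2 genes never differed beyond their pooled SD.

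The 4 mast cell proteases had a common shape, high and scattered in formerly obese-HFD mice and high and narrow in formerly obese mice. Cpa3 had lowest, median and highest values of 6.88, 8.19 and 8.75 in formerly obese-HFD, 7.55, 7.87 and 8.10 in formerly obese, 7.30, 7.53 and 8.26 in obese, 6.68, 7.36 and 8.19 in lean-HFD and 6.99, 7.40 and 7.71 in lean mice. Mcpt4 had 7.32, 8.38 and 9.14 in formerly obese-HFD, 8.34, 8.59 and 8.98 in formerly obese, 7.69, 8.01 and 8.85 in obese, 7.48, 8.13 and 8.64 in lean-HFD and 7.37, 8.24 and 8.48 in lean mice. For both genes the formerly obese median thus lay above the highest lean value, while the lowest formerly obese value lay inside the lean range. Cma1 averaged 6.29 ± 0.55 in formerly obese-HFD, 6.26 ± 0.18 in formerly obese, 5.85 ± 0.47 in obese, 6.04 ± 0.46 in lean-HFD and 5.88 ± 0.18 in lean mice (SD, n = 6 each). Tpsb2 averaged 6.16 ± 0.55 in formerly obese-HFD, 6.16 ± 0.16 in formerly obese, 5.78 ± 0.51 in obese, 6.08 ± 0.43 in lean-HFD and 5.77 ± 0.34 in lean mice. For all 10 genes the largest range inside a group was wider than the range of the 5 group means, and of 40 pairs of neighbouring groups 1 differed by more than the pooled SD.

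**Figure D1:**
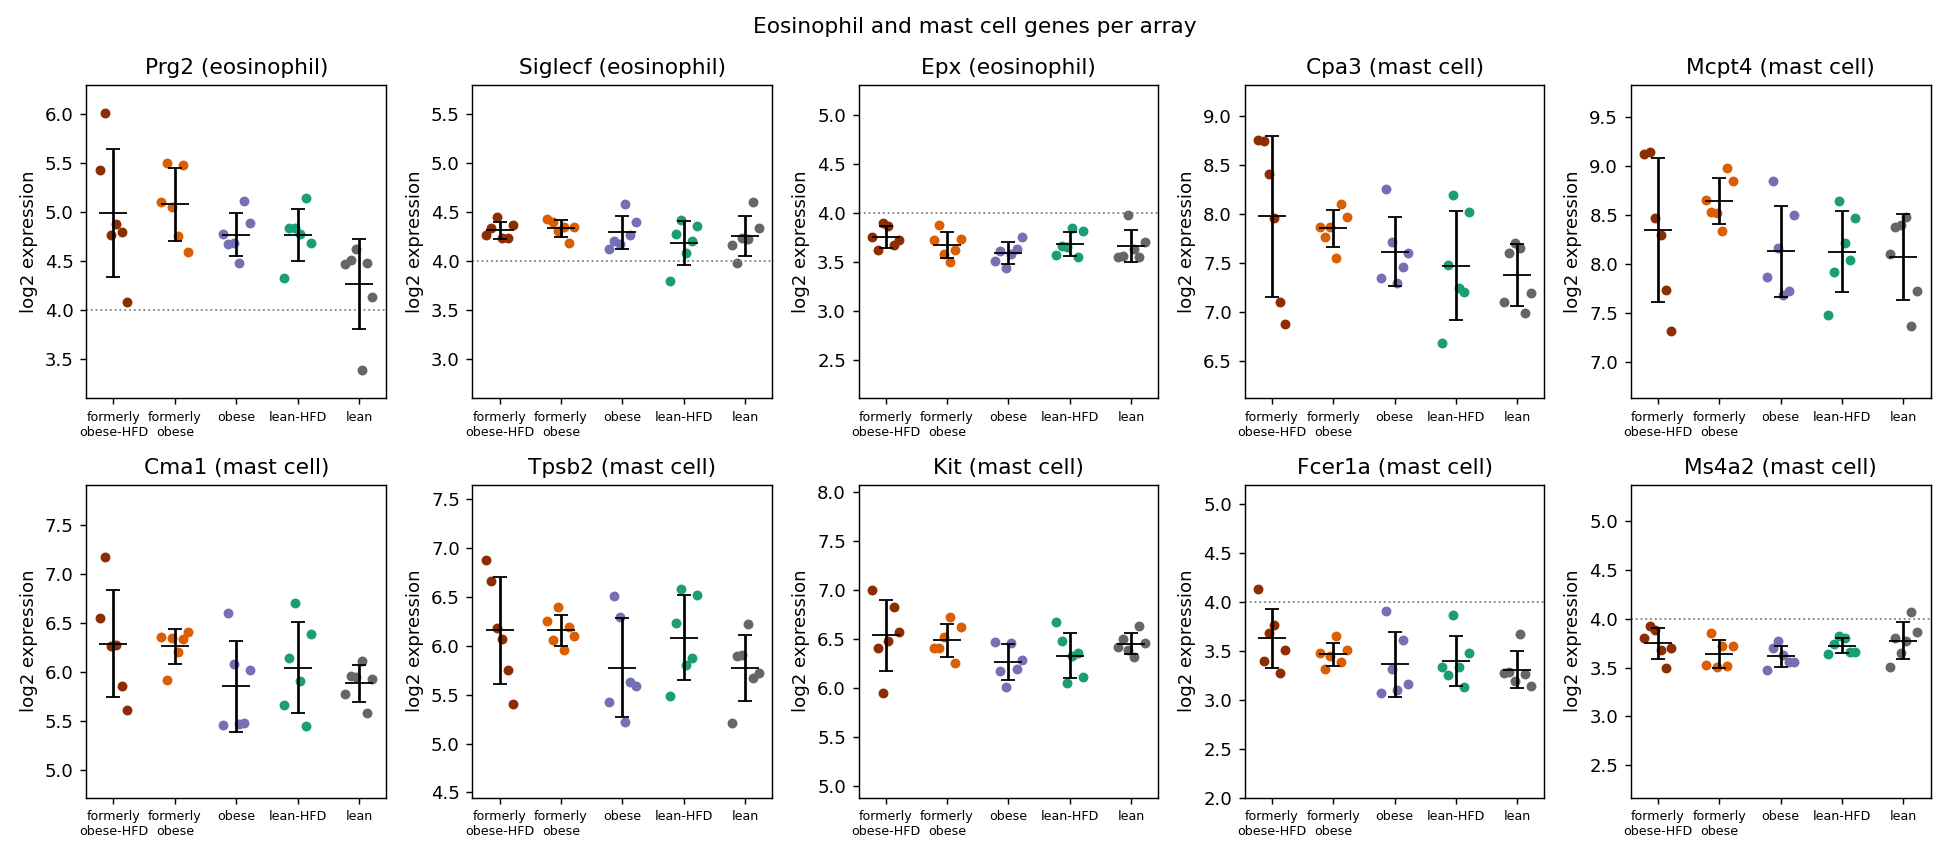
Log2 expression (vertical axis) of the 10 genes on every array, with the 5 groups along the horizontal axis, points for arrays, horizontal lines for group means, bars for the SD (n = 6) and a dotted line at the lower limit of 4. Cpa3 values of formerly obese-HFD mice spread from 6.88 to 8.75, and Epx lies below the limit on all 30 arrays.

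The receptors had smaller differences between group means. Kit, the stem cell factor receptor, had lowest, median and highest values of 5.95, 6.52 and 7.00 in formerly obese-HFD, 6.25, 6.46 and 6.72 in formerly obese, 6.0, 6.24 and 6.47 in obese, 6.04, 6.34 and 6.68 in lean-HFD and 6.32, 6.44 and 6.63 in lean mice. Its group means lay between 6.26 in obese and 6.54 in formerly obese-HFD mice, the group with its widest range too, and all groups overlapped. Fcer1a averaged 3.63 ± 0.31 in formerly obese-HFD, 3.46 ± 0.12 in formerly obese, 3.36 ± 0.34 in obese, 3.40 ± 0.25 in lean-HFD and 3.31 ± 0.19 in lean mice, and Ms4a2 stayed between 3.47 and 4.06. As for Cpa3, Cma1 and Tpsb2, the highest mean of Kit and of Fcer1a was that of formerly obese-HFD mice and the next that of formerly obese mice. Fcer1a and Ms4a2 lay at or under the lower limit.

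Formerly obese mice were set side by side with lean mice, which had eaten control diet throughout. By limma with Benjamini-Hochberg adjustment over 41345 probe sets, 0 of the 10 genes passed adjusted p under 0.10 with a fold over 1.3, and 0 probe sets did (0% of all tested). With the fold and level filters kept but an unadjusted p under 0.01, 4 of the 10 passed, all with the higher value in formerly obese mice. In that direction 0.740% of all probe sets passed. Prg2 was higher by 0.81 ± 0.22 (SE, 1.76-fold, adjusted p = 0.4997), Mcpt4 by 0.57 ± 0.19 (1.49-fold, adjusted p = 0.564), Cpa3 by 0.48 ± 0.14 (1.39-fold, adjusted p = 0.514) and Cma1 by 0.38 ± 0.11 (1.3-fold, adjusted p = 0.4997). Tpsb2 was higher by 0.39 ± 0.14 (adjusted p = 0.623), so that 5 of the 10 genes had an unadjusted p under 0.05, against 6.92% of all probe sets. For each of these 5 genes all 6 formerly obese arrays lay above the lean mean while the ranges of both groups overlapped. Without lean replicate 4 the Prg2 difference was 0.64. None of these values holds against the adjustment over all probe sets. The genes were chosen with earlier results of these data known. Cpa3, Mcpt4 and Cma1 also varied together over the arrays (pairwise r of 0.84 to 0.92), so they do not count as separate results. The shares of genes and of probe sets are therefore only a description.

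Both classes had a gene that stood out and genes that did not. Among eosinophil genes, Siglecf differed by 0.08 (95% interval -0.13 to 0.29) and Epx by 0.005 (-0.20 to 0.21), so that the class median was 0.08. Among mast cell genes, Kit differed by 0.04 (-0.15 to 0.23), Fcer1a by 0.16 (-0.05 to 0.36) and Ms4a2 by -0.14 (-0.35 to 0.08), and the class median was 0.38, with 6 of 7 genes higher. The median over all genes was -0.02. The 4 protease genes had the highest differences of the 7, and the receptor genes were within 0.16 of 0. Whether the classes differed from each other was not tested.

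**Figure D2:**
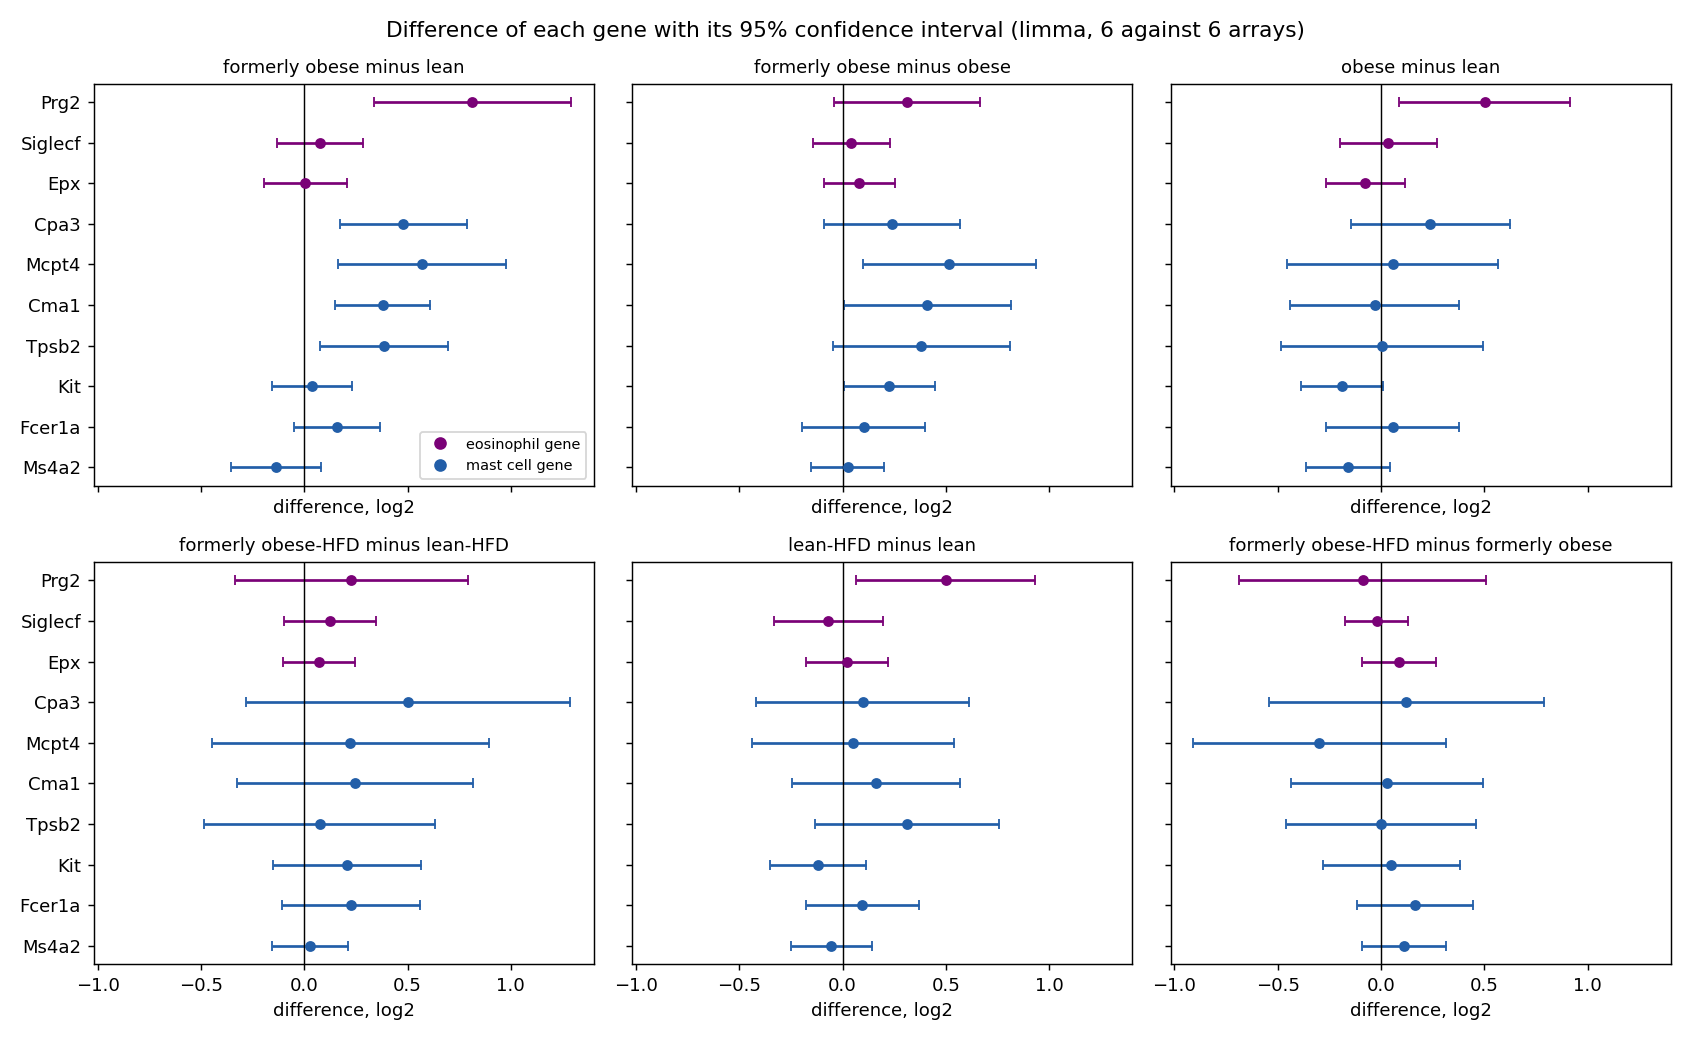
Difference in log2 expression (horizontal axis) of each gene (vertical axis) in 6 comparisons, as points with 95% confidence intervals from limma, n = 6 against 6. In formerly obese minus lean mice the intervals of Prg2, Cpa3, Mcpt4, Cma1 and Tpsb2 lie above 0, and in obese minus lean mice only that of Prg2 does.

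Markers of B cells, T cells and macrophages were mostly higher in formerly obese mice, although none was called. All 6 measured B cell markers were higher (median 0.77), with a mean level per array of 5.05 to 7.12 in formerly obese and 5.0 to 5.92 in lean mice. Of 6 T cell markers, 5 were higher (median 0.49), with a mean level of 5.07 to 6.29 in formerly obese and 5.0 to 5.31 in lean mice, and 7 of 10 macrophage markers were higher (median 0.18), with a mean level of 8.29 to 8.96 in formerly obese and 8.04 to 8.41 in lean mice. All 8 hepatocyte markers were lower (median -0.94), with a mean level of 5.19 to 7.95 in formerly obese and 5.41 to 9.53 in lean mice. All of these markers had a mean over the lower limit. Other immune lists were slightly lower in formerly obese than in lean mice by their mean level. It was 4.48 against 4.54 for 13 neutrophil markers and 5.69 against 5.71 for 5 basophil markers, some of them under the limit. For 6 markers of group 2 innate lymphoid cells it was 5.25 against 5.31. The part of all these cells in the values of Prg2 and the proteases was not tested. The comparisons with lean mice share the same 6 lean arrays.

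The long diet was examined in obese against lean mice. Of 41345 probe sets 6.04% were called, and 0 of the 10 genes. At an unadjusted p under 0.05, 1 of the 10 passed, against 18.4% of all probe sets. That gene was Prg2, higher in obese mice by 0.50 ± 0.19 (adjusted p = 0.167), with 6 of 6 obese arrays above the lean mean. Without lean replicate 4 the difference was 0.33. The mast cell genes differed by amounts on both sides of 0: Cpa3 by 0.24 (95% interval -0.15 to 0.62), Mcpt4 by 0.06 (-0.46 to 0.57), Tpsb2 by 0.005 (-0.48 to 0.49), Cma1 by -0.03 (-0.44 to 0.38) and Kit by -0.19 (-0.39 to 0.01). The upper ends for Cpa3 and Tpsb2 lie above their differences between formerly obese and lean mice, 0.48 and 0.39. Those for Mcpt4 (0.568 against 0.572), Cma1 (0.377 against 0.380) and Kit lie below theirs, for Mcpt4 and Cma1 narrowly. The latter differences have errors of their own and share the lean arrays. These limits therefore do not decide whether obese and formerly obese mice differ. In the same comparison 6 of 10 macrophage markers were called higher, led by Mpeg1, Cd68 and Adgre1, and Cd163 lower, with a mean level per array of 8.71 to 9.36 in obese and 8.04 to 8.41 in lean mice.

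The direct comparison of formerly obese with obese mice put all 7 mast cell genes and all 3 eosinophil genes higher in formerly obese mice, with medians of 0.24 and 0.08. Among them Epx, Fcer1a and Ms4a2 lay at or under the lower limit. With arrays centred on their median Ms4a2 differed by -0.0110. Of the probe sets 5.19% were called and 0 of the 10 genes, and 3 of the 10 had an unadjusted p under 0.05, against 17.7% of all probe sets. Mcpt4 was higher by 0.52 ± 0.19 (adjusted p = 0.168), Cma1 by 0.41 ± 0.19 (adjusted p = 0.276) and Kit by 0.22 ± 0.10 (adjusted p = 0.271). For Mcpt4 and Cma1 all 6 formerly obese arrays lay above the obese mean. Obese replicate 2 had the highest obese value of all 4 proteases, and without it Mcpt4 (0.66) and Cma1 (0.56) were called higher in formerly obese mice. In that fit 1748 of all probe sets were called in either direction. Prg2 differed by 0.31 ± 0.16 (adjusted p = 0.356), with 4 of 6 arrays above the obese mean. Other cell markers moved in this comparison too. All 8 mesothelial markers were higher in formerly obese mice (median 0.77), 4 of them called (Gpm6a, Lrrn4, Wt1 and Upk3b), with a mean level per array of 6.92 to 7.49 in formerly obese and 6.13 to 7.10 in obese mice. The correlation of Cpa3 residuals with those of the 8 was -0.38 to 0.69, highest for Wt1. All 6 B cell markers were higher as well (median 0.63, 0 called), while 5 of 10 macrophage markers were called lower. The part of these cells in the values of the 10 genes was not tested.

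The 48 h of HFD moved none of the genes past the threshold. Between lean-HFD and lean mice 0.00242% of probe sets and 0 of the 10 genes were called, and Prg2 was higher in lean-HFD mice by 0.50 ± 0.20 (adjusted p = 0.841), with 6 of 6 arrays above the lean mean, or by 0.32 without lean replicate 4. It was the only gene of the 10 with an unadjusted p under 0.05, against 5.90% of all probe sets. All 8 hepatocyte markers were higher in this comparison (median 2.33), with a mean level of 6.31 to 10.98 in lean-HFD and 5.41 to 9.53 in lean mice. Over all 30 arrays, with group means removed, the correlation of Prg2 with each of the 8 hepatocyte markers was -0.27 to -0.16, and their part in this result was not tested. Between formerly obese-HFD and formerly obese mice 0% of probe sets and 0 of the 10 genes were called, and 0 had an unadjusted p under 0.05, against 5.34% of all. Mcpt4 differed by -0.30 ± 0.28, and by -0.457 to -0.0913 with 1 array left out, and Prg2 by -0.09 ± 0.28. A test of whether the 48 h difference depended on history gave -0.59 ± 0.36 for Prg2 (95% interval -1.33 to 0.15), the smallest p of the 10 genes in that fit, with 0 genes and 0% of probe sets called, and 0 of the 10 at an unadjusted p under 0.05 (4.61% of all). Averaged over both histories, the 48 h difference was called for 0 of the 10 genes and 0.0556% of probe sets, with 0 of the 10 at an unadjusted p under 0.05 (7.12% of all).

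History of obesity was also compared under both last diets. Between formerly obese-HFD and lean-HFD mice 0% of probe sets and 0 of the 10 genes were called and 0 had an unadjusted p under 0.05 (8.27% of all). All 10 were higher in formerly obese-HFD mice, among them Epx, Fcer1a and Ms4a2, which lay at or under the lower limit. Cpa3 differed by 0.50 ± 0.36 (95% interval -0.28 to 1.29), with an SE of 0.36 beside one of 0.14 between formerly obese and lean mice. Averaged over both diets, with 12 arrays in each group, 0.307% of probe sets were called and 0 of the 10 genes. Prg2 was higher after a history of obesity by 0.52 ± 0.18 (adjusted p = 0.258, 11 of 12 arrays above the mean without that history), the only one of the 10 under an unadjusted p of 0.01 with the other filters, which 0.825% of probe sets passed in that direction. Cpa3 was higher by 0.49 ± 0.20 (adjusted p = 0.373), Mcpt4 by 0.40 ± 0.19, Cma1 by 0.31 ± 0.15 (adjusted p = 0.454) and Fcer1a by 0.19 ± 0.09 (adjusted p = 0.455, as for Mcpt4). With Prg2 these made 5 of the 10 at an unadjusted p under 0.05, against 10.8% of all probe sets. Fcer1a passed the lower limit on only 1 of 30 arrays. Cpa3, Mcpt4 and Cma1 varied together over the arrays, so the 5 are not separate results. Without formerly obese-HFD replicate 6 Prg2 was called (0.61). All 8 hepatocyte markers were lower after a history of obesity (median -1.56), with a mean level of 5.19 to 8.24 in mice with that history and 5.41 to 10.98 in mice without, and their correlations with Prg2 were -0.27 to -0.16. All 6 T cell markers were higher after that history (median 0.50, 0 called, Cd3g with 0.87), with a mean level of 5.07 to 6.70 in mice with that history and 4.92 to 5.79 in mice without. All 6 B cell markers were higher as well (median 0.45, 0 called), with a mean level of 4.96 to 7.12 and, in mice without that history, 5.0 to 6.16. The part of these cells in the values was not tested.

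Variation between mice of the same group was the larger part of the data. The within-group SD of Cpa3 was 0.50, higher than in 97.5% of 1246 genes of like level (within 0.25 log2), and that of Mcpt4 was 0.49, higher than in 97.1% of 926. Tpsb2 and Cma1 stood at 90.3% and 90.1%, Prg2 at 87.4% and Kit at 61.0%. In formerly obese-HFD mice Cpa3 read 8.75, 8.75, 8.41, 7.96, 7.10 and 6.88 in replicates 1 to 6, and Mcpt4 read 9.13, 9.14, 8.47, 8.30, 7.74 and 7.32. Replicates 1 and 2 were the highest and 5 and 6 the lowest for both genes. These 6 arrays also had the widest range for Tpsb2, Cma1, Kit, Fcer1a and Prg2. The mean level of macrophage markers ran from 7.86 to 9.27 in the same group, against 7.98 to 8.27 in lean-HFD mice.

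To see which genes varied together, each group's mean was removed and the residuals of the 30 arrays were correlated, with p values from 100000 permutations within groups adjusted over 45 pairs. The 4 proteases formed 1 block. Their 6 pairs had Pearson r of 0.78 to 0.92 and Spearman rho of 0.72 to 0.90, and the largest adjusted p was 0.00045 for r and 0.00165 for rho. Without the 2 arrays farthest from the median r was 0.73 to 0.90, leaving out any 1 group it was 0.66 to 0.93, and within single groups of 6 it was 0.24 to 0.99. The closest pair was Cpa3 and Mcpt4 (r = 0.92), which belong to different protease families and chromosomes. Fcer1a correlated with Cpa3 (r = 0.55, adjusted p = 0.0467 by permutation) and Tpsb2 (r = 0.60, adjusted p = 0.0295 by permutation), although rho gave 0.0728 for both. These 8 pairs were the only ones of 45 under an adjusted p of 0.05 for r, and all were between mast cell genes. Fcer1a passed the lower limit on only 1 array. Within single groups its r was -0.54 to 0.80 with Cpa3 and -0.35 to 0.73 with Tpsb2.

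Kit had negative correlations with all 4 proteases, none under an adjusted p of 0.05 for r and 2 under it for rho. Its correlation with Cpa3 was -0.46 (adjusted p = 0.228 by permutation), with a rho of -0.59 (adjusted p = 0.0180), and without formerly obese-HFD mice r was -0.75. With Mcpt4 it was -0.36 (rho = -0.53, adjusted p = 0.0406), with Cma1 -0.37 (rho = -0.47, adjusted p = 0.0839 by permutation) and with Tpsb2 -0.33 (rho = -0.51, adjusted p = 0.0593 by permutation). Within single groups r was -0.92 to -0.19 with Cpa3, and up to 0.07 with Cma1 and 0.12 with Tpsb2. Among the 14372 genes over the lower limit, Kit was placed 13856 when ordered by correlation with Cpa3.

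**Figure D3:**
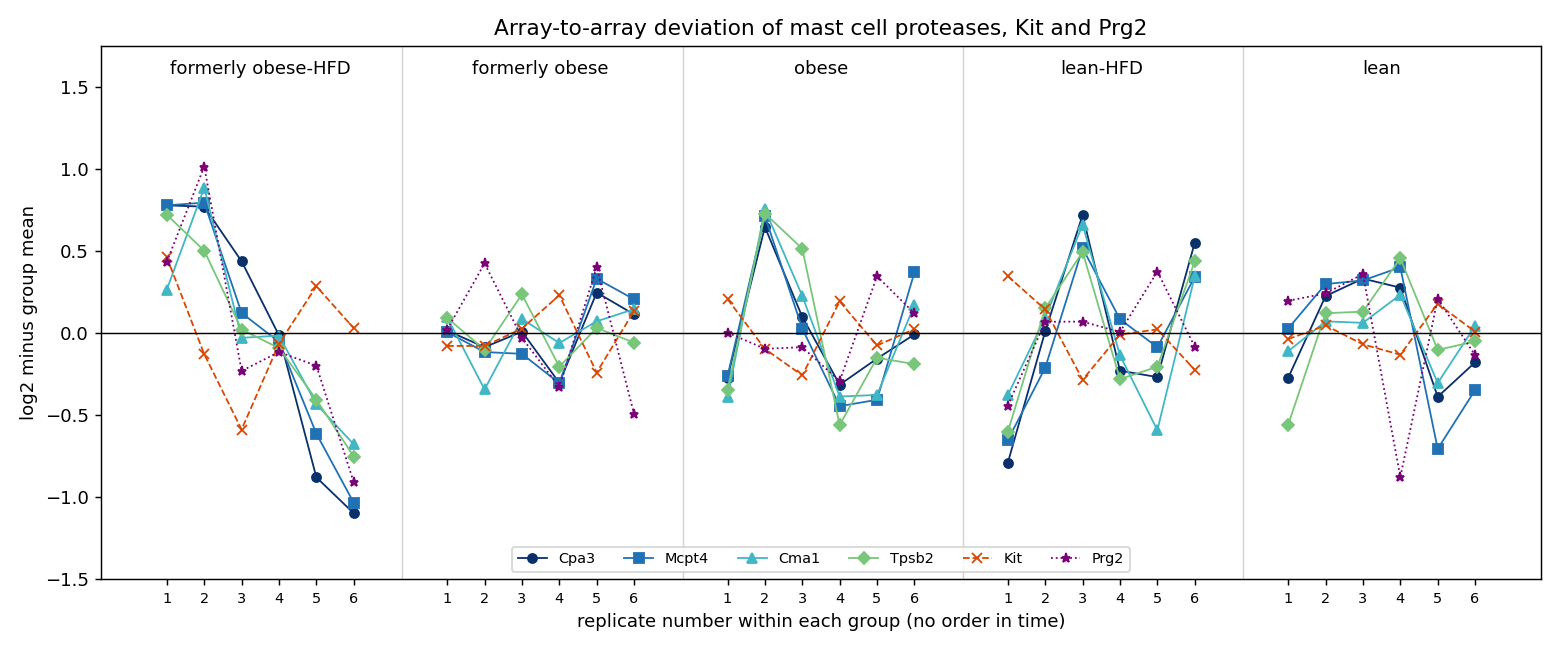
Deviation from the group mean in log2 units (vertical axis) of Cpa3, Mcpt4, Cma1, Tpsb2, Kit and Prg2 on each array (horizontal axis, replicate numbers within the 5 groups, which have no order, joined by lines to guide the eye). The 4 protease lines run together over the 30 arrays, with pairwise r of 0.78 to 0.92, and less closely in some groups (0.24 to 0.99 within single groups). The Kit line often runs opposite to them.

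The eosinophil genes formed no such block. Prg2 correlated with Siglecf at 0.01 and with Epx at 0.04, and Siglecf with Epx at 0.22 (adjusted p = 0.974, 0.903 and 0.494 by permutation). In the order of likeness to Prg2, Siglecf was placed 7014 of 14372. The 21 pairs of an eosinophil with a mast cell gene had r from -0.30 to 0.44, none under an adjusted p of 0.05. The highest was Prg2 with Cpa3 (r = 0.44, rho = 0.33, adjusted p = 0.201 by permutation), which was 0.16 without the 2 farthest arrays and 0.06 without formerly obese-HFD mice, so that it rests on those arrays. Epx lay under the lower limit and Siglecf just over it, with a within-group SD higher than in 4.31% of genes of like level for Epx and 10.6% for Siglecf, so that little variation was left to correlate.

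**Figure D4:**
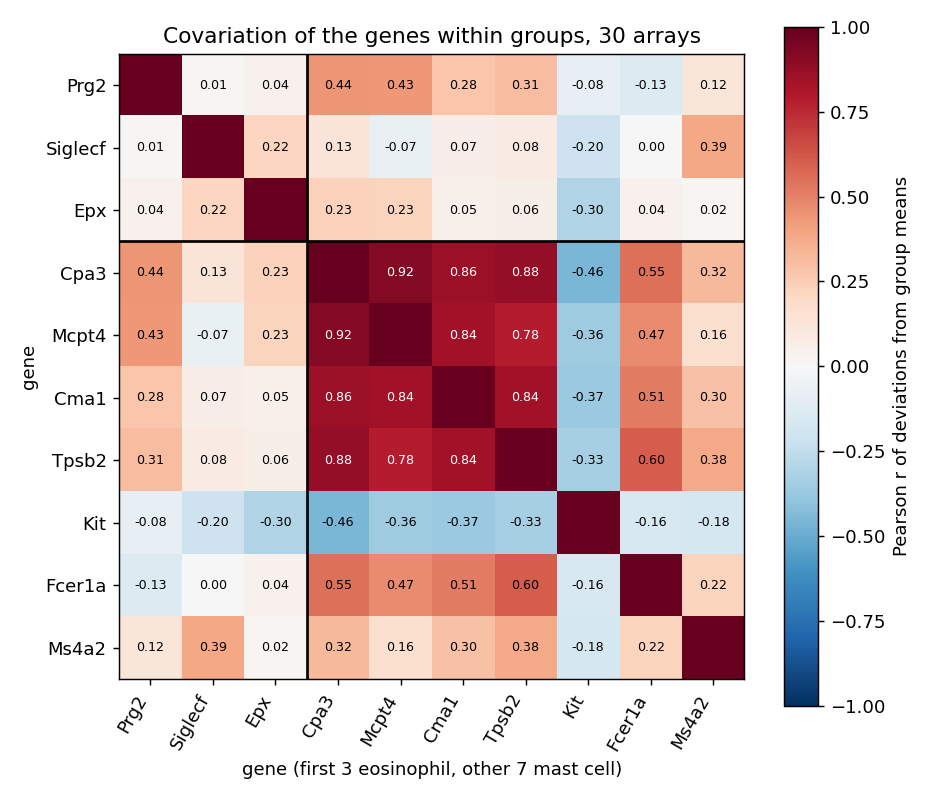
Pearson r between each pair of the 10 genes (both axes, the first 3 are eosinophil genes and the other 7 mast cell genes) over residuals of 30 arrays from group means, on a colour scale from -1 to 1. The square of Cpa3, Mcpt4, Cma1 and Tpsb2 holds r of 0.78 to 0.92, and the eosinophil corner holds 0.01 to 0.22.

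Genes most like Cpa3 were found by the same correlation over the 30 arrays among 14372 genes over the lower limit, as a description. Mcpt4 (0.92), Tpsb2 (0.88) and Cma1 (0.86) were placed 1 to 3, followed by Clip3, a microtubule-associated linker protein (0.85), Runx1t1, a transcriptional corepressor (0.80), and Itsn2, an endocytic scaffold (0.79). Of these 6, between 3 and 6 were again among the first 6 when a group was left out. For Prg2 the first 6 were Kazald1 (0.74), Galnt17 (0.73), the T cell receptor chain Cd3d (0.70), Bend6 (0.69), Taf8 (0.69) and Cd3e (0.68), of which 1 to 5 came back when a group was left out. The points share array normalization and tissue makeup. T cell markers correlated with Prg2 at 0.09 to 0.70 (median 0.57, 6 genes) and with Cpa3 at 0.21 to 0.60 (median 0.46), and macrophage markers with Cpa3 at 0.05 to 0.63 (median 0.45, 10 genes). B cell markers correlated with Prg2 at 0.41 to 0.56 (median 0.43, 6 genes) and with Cpa3 at 0.14 to 0.63 (median 0.45), and the mesothelial markers Wt1 and Gpm6a with Cpa3 at 0.69 and 0.47.

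Few of 20 further mast cell genes were called. Over both diets, Hpgds, the prostaglandin D synthase of mast cells and macrophages, was called higher after a history of obesity (0.83 ± 0.18, adjusted p = 0.0621), the only one of the 20, against 0.307% of all probe sets. Mitf, a transcription factor that mast cells need, was higher by 0.33 ± 0.08 (adjusted p = 0.0823), a fold of 1.26 that the fold filter leaves out. In formerly obese against lean mice 0 of 20 were called, and the smallest p were those of Hpgds (0.71 ± 0.19, adjusted p = 0.4997) and Mrgprb2, the mast cell receptor for basic secretagogues (0.55 ± 0.16, adjusted p = 0.513), the lean mean being exceeded on 6 of 6 formerly obese arrays for both. The genes whose residuals were closest to Cpa3, chosen after their values were seen, were Tph1 of serotonin synthesis (0.73), the receptor gene Mrgprb1 (0.71) and the heparin-modifying enzyme Ndst2 (0.63), while the 20 genes had a median of 0.25. In obese against lean mice, where 6.04% of probe sets were called, 3 of 20 were called higher: Hpgds (1.84 ± 0.26), Fcer1g (0.94 ± 0.16), the gamma chain shared by Fc receptors, and Srgn (0.45 ± 0.09), the granule proteoglycan serglycin. Macrophages also express all 3, and Hpgds and Fcer1g were called lower in formerly obese than in obese mice (-1.13 ± 0.29 and -0.70 ± 0.18).

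Of signalling genes downstream of the IgE receptor and growth factors of mast cells, 11 were measured and 5 were called higher in obese than in lean mice, against 6.04% of probe sets called in either direction (median of the list 0.47, of all genes -0.02), among them the adaptor Lat2 (1.48 ± 0.22, adjusted p = 0.0021), the kinase Syk (1.05 ± 0.21), the phosphatase Inpp5d (0.82 ± 0.15) and the growth factor Tgfb1 (0.67 ± 0.12). In formerly obese against obese mice Lat2 (-1.22 ± 0.26) and Tgfb1 (-0.56 ± 0.14) were called lower, the opposite sign to Mcpt4 and Cma1. Macrophages and lymphocytes also express these genes, and in obese against lean mice the macrophage markers had a median of 0.61.

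Signals that draw or keep eosinophils were called in both directions. In obese against lean mice the eotaxin Ccl24 was called lower (-1.12 ± 0.12, adjusted p = 3.2e-04) and the chemokines Ccl7 (1.20 ± 0.18), Ccl5 (1.05 ± 0.23) and Ccl8 (0.81 ± 0.20) higher, 4 of 13 measured genes, against 6.04% of all probe sets. In formerly obese against obese mice 5 of 13 were called, against 5.19% of all probe sets. Ccl24 (0.88 ± 0.14), the epithelial cytokine Tslp (0.51 ± 0.09) and the alarmin Il33 (0.52 ± 0.16) were called higher and Ccl7 (-1.16 ± 0.22) lower. In formerly obese against lean mice 0 of 13 were called, and Ccl5 had the smallest p (1.17 ± 0.26, adjusted p = 0.4997). Of 9 further eosinophil genes, Alox15, a lipoxygenase also known from resident macrophages, was called lower in obese than in lean mice (-0.58 ± 0.14) and higher in formerly obese than in obese mice (0.75 ± 0.14), with the groups not overlapping in either comparison, which 1.55% of probe sets showed downward and 1.44% upward. The Prg2 difference in obese against lean mice, 0.50, had the opposite sign to those of Ccl24 and Alox15. It had the same sign as those of Ccl7, Ccl5 and Ccl8. Basophil genes, of which Mcpt8 and Prss34 are the most specific, had 0 of 5 called in any of the 9 comparisons.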

How the data were processed

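Total RNA of gonadal fat was labelled and hybridised by the authors to Affymetrix Mouse Gene 2.0 ST arrays. The deposited log2 values were made by the authors with RMA (background correction, quantile normalization of all arrays, median polish) in Affymetrix Expression Console 1.4.1.46 and were used unchanged. Of 41345 probe sets 23521 had 1 gene symbol, 1820 several and 16004 none. A gene was read from its probe set with 1 symbol and the highest mean over 30 arrays.

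The comparisons used limma 3.58.1 (lmFit and eBayes, two-sided) under R 4.3.3 on the arrays of the groups in question, with 24 arrays for history, refeeding and their interaction. Calls needed a Benjamini-Hochberg adjusted p under 0.10 over all probe sets, a fold over 1.3 and a group mean over 16 (log2 of 4), the cut-offs of the study's methods, whose looser set uses an unadjusted p under 0.01. Scripts were first tested on simulated arrays. Correlations used Python 3.11.15 with numpy 2.4.6 and scipy 1.17.1, and figures matplotlib 3.10.9.

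The genes and lists were chosen with earlier results of these data known. All 10 genes were tested in every comparison, but the text does not give the value of each gene in each comparison. Of the lists of genes of the same cells and their signals, called genes are named, up to 4 per list and comparison with the smallest p, or else up to 2 with the smallest p. Lists of other cell types are given by counts, medians and levels, with some called genes named, and for Cpa3 and Prg2 the 6 most alike genes. Precision is limited by 6 arrays a group, and p values measure only the spread between these samples. Batches are not given in the sources used here. Replicate numbers were checked and did not pair arrays of different groups. The alternatives tried were 1 fit over all arrays, median centring, array weights, a trended robust variance, other thresholds and filters, a replicate block, and leaving out each array, to which leaving out each group and the 2 farthest arrays was added for correlations after the data were seen.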

Additional observations from a re-analysis of the deposited data

Results flagged for a closer look

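In 50 sets of 6 arrays (10 genes in 5 groups), 2 arrays stood farther from their group than Dixon's 95% critical value allows, and chance alone gives about 1 in 20 such sets. Epx read 3.985 in lean replicate 3, while the other lean arrays read 3.554 to 3.702. Fcer1a read 3.673 in lean replicate 4, while the other lean arrays read 3.140 to 3.289. Both values lie under the lower limit of expression. Lean replicate 4 also had the lowest Prg2 value, 3.389, with 4.132 to 4.626 in the other lean arrays, a gap that did not pass the same criterion. For 0 of 10 genes did the difference after 48 h of HFD depend on history at an unadjusted p under 0.05 by limma.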

How the results depend on the processing

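Values were limited by the spread between mice, which for the proteases and Prg2 was wider than for most genes of like level, and by the lower limit of expression, at or under which Epx, Fcer1a and Ms4a2 lie. Array probes of related proteases can share signal, and levels of different genes cannot be set against each other.

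Under alternatives other than leaving out an array, 889 of 900 values kept their direction and their side of the threshold. The count of genes called in formerly obese minus lean mice was 0 under every alternative except an unadjusted p under 0.01, which gave 4 (Prg2, Cpa3, Mcpt4 and Cma1), and that for history over both diets was 0 except for 1 under the same threshold (Prg2). Centring arrays on their median turned Epx to -0.0125 in formerly obese minus lean mice and to -0.000167 in lean-HFD minus lean mice, Ms4a2 to -0.0110 in formerly obese minus obese mice and Tpsb2 to -0.0105 in formerly obese-HFD minus formerly obese mice. Array weights turned Epx to -0.00593 in formerly obese minus lean mice and to -0.0142 in lean-HFD minus lean mice. The cause was not tested. Over all probe sets, calls for history over both diets numbered 127 in the design reported and 25 at an adjusted p under 0.05, 213 with all arrays in 1 fit and 236 with array weights, and those for 48 h of HFD over both histories 23, 6, 48 and 38.

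Replicate numbers did not pair the arrays: 36 same-numbered pairs had residual correlations of -0.26 to 0.47 (median -0.01), 7 of them over 0.1. With the replicate number as a block, 0 of the 10 genes were called in each of the 9 comparisons, and 84 and 7 probe sets were called for history and for 48 h of HFD.

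Leaving out 1 array at a time gave 0 to 2 genes called in formerly obese minus obese mice (2, Mcpt4 and Cma1, without obese replicate 2), 0 to 1 for history over both diets (1, Prg2, without formerly obese-HFD replicate 6) and 0 in the other comparisons. In those 2 fits 1748 and 340 of all probe sets were called. Of 1440 values, 73 changed sign, all of genes that were not called. Their ranges were for obese minus lean mice Siglecf (-0.0224 to 0.104), Mcpt4 (-0.0867 to 0.145), Cma1 (-0.182 to 0.0474), Tpsb2 (-0.141 to 0.117) and Fcer1a (-0.0535 to 0.13), for formerly obese minus lean mice Epx (-0.036 to 0.0686) and Kit (-0.0086 to 0.0856), for formerly obese minus obese mice Ms4a2 (-0.0185 to 0.0555), for lean-HFD minus lean mice Siglecf (-0.125 to 0.00857), Epx (-0.0134 to 0.0829), Cpa3 (-0.0473 to 0.255), Mcpt4 (-0.0902 to 0.181) and Ms4a2 (-0.108 to 0.00323), for formerly obese-HFD minus formerly obese mice Prg2 (-0.291 to 0.0937), Cpa3 (-0.0341 to 0.341), Cma1 (-0.15 to 0.163), Tpsb2 (-0.143 to 0.152) and Kit (-0.0425 to 0.167), for formerly obese-HFD minus lean-HFD mice Tpsb2 (-0.0693 to 0.225) and Ms4a2 (-0.00743 to 0.0778), for 48 h of HFD over both histories Kit (-0.0815 to 0.0234), for the dependence of the 48 h difference on history Siglecf (-0.0302 to 0.103), Cpa3 (-0.133 to 0.244), Cma1 (-0.311 to 0.0019) and Fcer1a (-0.0325 to 0.162).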
